A study of Rattus norvegicus with 20 samples.

Results

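Genes of collagen fibril formation were followed in rat mesenteric arteries across treatment with 5 estrogen receptor ligands or vehicle. The set named 8 genes: Col1a1, Col1a2, Col3a1, Col5a1, Col5a2, Col14a1, Pcolce and Lox. A probe was taken where its only gene symbol in the platform's probe annotation was one of these. Probes were found for 7 of the 8 genes, 12 in all, out of the 35129 probes in the deposited table. No probe carried Col3a1 (the type III collagen chain) as its single symbol, and that gene is not analysed here. All 12 probes were among the 24562 that passed the filter on dim probes and were tested. The genes were chosen by their log2 changes against vehicle in these same arrays, so their values against vehicle are given as a description. Col1a1, Col5a1, Col5a2, Col14a1 and Pcolce each had 2 probes, called here the brighter and the dimmer by mean intensity, and Col1a2 and Lox had 1. Mean intensities of the 12 probes ran from 13.7 to 64.0, which placed them between the 89.5th and the 97.8th percentile of all probes on the array.

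Fibrillar collagens are secreted as procollagens, long triple helices with globular ends. Once the end pieces are cut away outside the cell, the helices pack into fibrils, and lysyl oxidase then joins neighbouring molecules by cross-links. In small arteries the fibrils lie mainly in the adventitia and between the smooth muscle layers, where they bear load at high pressure and set wall stiffness.

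The rats were female Sprague Dawley animals that had been ovariectomised at 4 weeks of age and had recovered for 2 weeks, so every group, vehicle included, lacked ovaries. Daily gavage for 3 weeks delivered ethinyl estradiol (EE), estradiol benzoate (EB) or equilin (EQ) at 0.15 mg/kg, tamoxifen (TAM) or raloxifene (RAL) at 3 mg/kg, or the vehicle, 20% 2-hydroxypropyl-β-cyclodextrin. Ethinyl estradiol is a synthetic estrogen with an added ethinyl group, estradiol benzoate is an ester of the natural hormone, and equilin is an estrogen of horses. Tamoxifen and raloxifene are selective estrogen receptor modulators (SERMs), which activate or block estrogen receptors depending on the tissue. There were 3 arrays for EE, 3 for EB, 3 for EQ, 4 for TAM, 3 for RAL and 4 for vehicle, each from a single rat aged 9 weeks at the end. RNA came from the mesenteric arterial tree dissected free of veins and fat, and was hybridised to single-colour CodeLink whole rat genome arrays.

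Values below are deposited intensities, linear and scaled so that each array had a median near 1, and log2 changes are on log2(intensity + 0.103) after centring on each array's median. Smooth muscle marker probes had a mean centred log2 level of 3.49 to 5.27 on the 20 arrays, and adipocyte marker probes one of 5.25 to 5.93, so both kinds of marker read above the array median on average. The deposited medians split the arrays into 2 sets with no name in the labels: vehicle array 1 lay with the 9 estrogen arrays, and vehicle arrays 2 to 4 lay with the 7 SERM arrays. The estrogen groups thus have 1 vehicle array in their own set and the SERM groups 3, and values with the array set as a block are given after the counts. RAL array 3 stood apart, correlating with the rest at 0.841 on average, where the other 19 arrays gave averages of 0.918 to 0.959. A probe is said to be called where limma's Benjamini-Hochberg adjusted p over all 24562 probes was under 0.05. The labels describe individual rats, and the number of arrays limits the precision.

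Promoter sequence was available for 4 of the 8 genes, Col1a2, Col5a1, Col5a2 and Pcolce, from RefSeq on build GRCr8. Stretches of 3 of them are shown because these genes code for a type I chain, a type V chain and the processing enhancer, whose brighter or only probes moved by different amounts across the compounds. Capitals mark matches, on either strand, to the TATA box letters TATAAA, to the CCAAT box and to GGGCGG, the core of a GC box. The Col1a2 stretch is chr4:33518307-33518416 on the + strand, the Col5a2 stretch is chr9:55090152-55090251 on the - strand, and the Pcolce stretch is chr12:24720872-24720971 on the + strand, with the Col5a2 and Pcolce stretches being the 100 bases just before the annotated transcript start.
Col1a2: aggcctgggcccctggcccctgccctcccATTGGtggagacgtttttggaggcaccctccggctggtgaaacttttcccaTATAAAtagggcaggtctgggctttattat
Col5a2: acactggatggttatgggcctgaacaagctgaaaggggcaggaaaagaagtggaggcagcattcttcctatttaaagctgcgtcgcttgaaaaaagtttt
Pcolce: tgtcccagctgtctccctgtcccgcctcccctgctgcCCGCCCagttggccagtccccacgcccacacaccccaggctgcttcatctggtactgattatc
In Col1a2 the TATAAA match began at position -170 and the CCAAT match at -221, counted from that start. In Pcolce the GGGCGG match began at -63, and in Col5a1, not printed, at -127. Among 33469 rat promoters searched over the same 250 bases before the start, 12.9% held TATAAA, 34.0% held CCAAT and 30.5% held GGGCGG. The palindromic estrogen response element GGTCANNNTGACC was found in 0.0239% of promoters, and in none of the 4 members' windows. These matches describe the letters only and say nothing of what binds there.

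Col1a1 codes for the pro-α1(I) chain, the main chain of type I collagen, and it showed the largest decrease of any member in EE and TAM rats. The brighter Col1a1 probe read 29.6, 44.3 and 20.0 in EE rats, 80.2, 78.5 and 65.6 in EB rats and 45.8, 44.4 and 58.2 in EQ rats. The same probe read 24.5, 25.8, 29.2 and 27.5 in TAM rats and 35.1, 29.4 and 18.7 in RAL rats, against 111, 97.5, 67.6 and 66.9 in vehicle rats. All EE, EQ, TAM and RAL arrays lay below all vehicle arrays, while the EB arrays overlapped them. The log2 change against vehicle was -1.53 ± 0.26 (SE) in EE, -0.21 ± 0.26 in EB, -0.81 ± 0.26 in EQ, -1.64 ± 0.24 in TAM and -1.62 ± 0.26 in RAL. On the linear scale the fitted level was 2.88-fold lower in EE, 3.11-fold lower in TAM and 3.08-fold lower in RAL. In bulk tissue, fewer cells of a type and less RNA per cell cannot be told apart.

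The dimmer Col1a1 probe, assigned to the same gene record, read 8.03, 10.9 and 6.26 in EE rats, 19.4, 21.0 and 17.6 in EB rats and 9.50, 7.56 and 9.20 in EQ rats. It read 7.67, 7.74, 10.7 and 8.71 in TAM rats and 9.45, 13.1 and 11.9 in RAL rats, against 21.5, 23.8, 23.6 and 25.5 in vehicle rats. Here every array of all 5 compounds, EB included, lay below every vehicle array. Its log2 change against vehicle was -1.55 ± 0.19 in EE, -0.33 ± 0.19 in EB, -1.47 ± 0.19 in EQ, -1.43 ± 0.18 in TAM and -1.03 ± 0.19 in RAL. The order of group means was EE, EQ, TAM, RAL, EB and vehicle from low to high. Neighbours among EE, EQ, TAM and RAL overlapped, whereas the EB arrays lay apart from RAL below them and from vehicle above them. The probes differed most for EQ, where the brighter read a change of -0.81 and the dimmer one of -1.47, and only the dimmer was called.

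**Figure D1:**
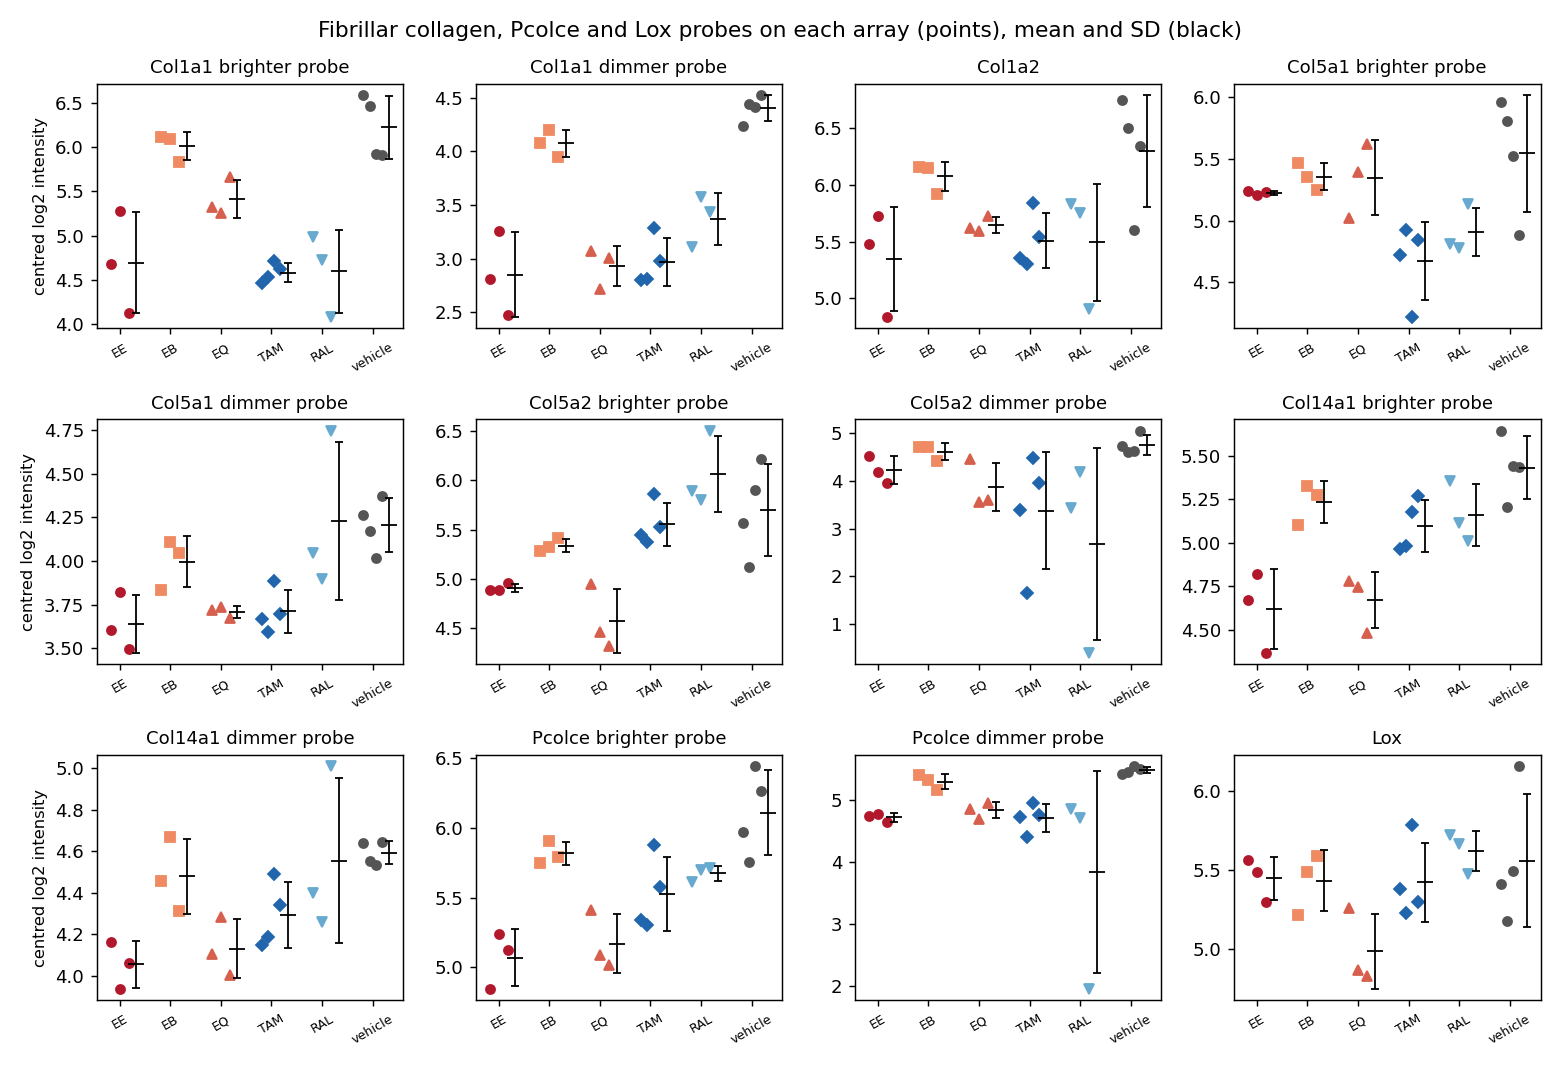
Centred log2 intensity (vertical axis) of each of the 12 probes in EE, EB, EQ, TAM, RAL and vehicle rats. Coloured or grey points are single arrays and the black mark beside them is the group mean with its SD. The brighter Col1a1 probe averages 4.70 in EE, 4.59 in TAM and 4.60 in RAL against 6.22 in vehicle. For the dimmer Pcolce and Col5a2 probes 1 RAL array lies far below the rest.

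Col1a2 codes for the partner chain, pro-α2(I), and its single probe also placed EB closest to vehicle, with a wide spread among vehicle rats. It read 51.4, 60.6 and 32.5 in EE rats, 82.4, 81.3 and 69.7 in EB rats and 56.2, 56.1 and 61.2 in EQ rats. It read 45.5, 43.8, 63.8 and 52.0 in TAM rats and 63.1, 59.8 and 33.1 in RAL rats, against 124, 100.1, 53.9 and 90.1 in vehicle rats. Vehicle array 3 was the low vehicle array, and through it every compound group overlapped vehicle. The low RAL value of 33.1 came from RAL array 3, the array that stood apart. The log2 change was -0.95 ± 0.27 in EE, -0.23 ± 0.27 in EB, -0.65 ± 0.27 in EQ, -0.79 ± 0.25 in TAM and -0.81 ± 0.27 in RAL, and none of these was called.

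Col5a1 and Col5a2 code for the chains of type V collagen, which is thought to start fibrils and to limit their diameter. The brighter Col5a1 probe read 29.2, 33.8, 20.6 and 31.9 in TAM rats and 31.0, 30.4 and 38.8 in RAL rats, against 71.3, 61.8, 51.2 and 32.7 in vehicle rats. Vehicle array 4 was the low one, and both SERM groups overlapped vehicle through it. The log2 change was -0.87 ± 0.21 in TAM and -0.64 ± 0.23 in RAL, with -0.32 ± 0.23 in EE, -0.19 ± 0.23 in EB and -0.20 ± 0.23 in EQ, and none was called. The dimmer Col5a1 probe changed by -0.57 ± 0.18 in EE, -0.50 ± 0.18 in EQ, -0.49 ± 0.17 in TAM and 0.02 ± 0.18 in RAL, again without a call. It read 18.2, 16.4 and 29.7 in the RAL rats, so that RAL array 3, the array that stood apart, was the highest of all 20. Without that array the RAL change of this probe was -0.24.

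Col5a2 was the member whose probes differed most from each other in their TAM and RAL changes against vehicle. Its brighter probe read 34.2, 33.7 and 35.5 in EE rats, 44.9, 45.9 and 48.9 in EB rats and 35.2, 25.5 and 23.0 in EQ rats. It read 48.4, 46.2, 64.8 and 51.5 in TAM rats and 65.7, 61.8 and 101 in RAL rats, against 54.4, 38.2, 66.3 and 82.4 in vehicle rats. The EE and EQ arrays lay below all vehicle arrays, and the EB, TAM and RAL arrays overlapped them. The log2 change was -0.79 ± 0.23 in EE, -0.36 ± 0.23 in EB, -1.12 ± 0.23 in EQ, -0.15 ± 0.22 in TAM and 0.36 ± 0.23 in RAL, and the EQ change alone was called.

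The dimmer Col5a2 probe had its lowest group means in SERM rats, with EE and EQ also below vehicle. It read 26.6, 20.7 and 17.5 in EE rats, 30.2, 30.2 and 24.3 in EB rats and 25.0, 13.6 and 13.8 in EQ rats. The same probe read 11.5, 3.41, 24.9 and 17.2 in TAM rats and 11.8, 20.2 and 1.35 in RAL rats, against 30.2, 26.9, 27.3 and 36.8 in vehicle rats. All EE, EQ, TAM and RAL arrays lay below all vehicle arrays, the EB arrays overlapped them, and the SERM arrays spread over a wide range. The log2 change was -0.53 ± 0.67 in EE, -0.14 ± 0.67 in EB, -0.89 ± 0.67 in EQ, -1.38 ± 0.62 in TAM and -2.08 ± 0.67 in RAL, where the brighter probe had SEs of 0.22 and 0.23, and none of these was called. Without RAL array 3 the RAL change was -0.94.

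Col14a1 codes for type XIV collagen, which does not form fibrils itself but sits on their surface. Its brighter probe read 29.4, 32.3 and 23.5 in EE rats, 39.6, 46.2 and 44.5 in EB rats and 31.3, 31.2 and 25.7 in EQ rats. It read 34.6, 35.1, 40.2 and 42.9 in TAM rats and 45.4, 38.4 and 35.6 in RAL rats, against 57.4, 40.6, 48.4 and 48.0 in vehicle rats. The EE and EQ arrays lay below all arrays of the other 4 groups. The log2 change was -0.81 ± 0.16 in EE and -0.76 ± 0.16 in EQ, both called, with -0.20 ± 0.16 in EB, -0.34 ± 0.15 in TAM and -0.27 ± 0.16 in RAL. The dimmer probe had smaller changes of -0.54 ± 0.17 in EE and -0.46 ± 0.17 in EQ, and neither was called.

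Pcolce codes for the procollagen C-endopeptidase enhancer, a secreted protein that speeds removal of the carboxy-terminal end piece. Its brighter probe read 33.2, 43.2 and 39.7 in EE rats, 62.2, 68.8 and 63.6 in EB rats and 48.7, 39.4 and 37.2 in EQ rats. It read 45.0, 43.9, 65.4 and 53.1 in TAM rats and 54.2, 57.5 and 58.1 in RAL rats, against 71.8, 59.4, 96.4 and 85.3 in vehicle rats. The EE, EQ and RAL arrays lay below all vehicle arrays, with the RAL arrays close to vehicle array 2. The log2 change was -1.04 ± 0.18 in EE and -0.94 ± 0.18 in EQ, both called, with -0.29 ± 0.18 in EB, -0.58 ± 0.17 in TAM and -0.43 ± 0.18 in RAL. The fitted level was thus 2.05-fold lower in EE and 1.91-fold lower in EQ.

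The dimmer Pcolce probe had tight vehicle values. It read 30.8, 31.3 and 28.6 in EE rats, 48.7, 46.0 and 41.03 in EB rats and 33.1, 30.1 and 35.7 in EQ rats. It read 29.5, 23.5, 34.3 and 30.2 in TAM rats and 32.1, 29.0 and 4.21 in RAL rats, against 49.3, 48.5, 51.8 and 50.04 in vehicle rats. After median centring all 5 compound groups lay below vehicle, EB only just, as EB array 1 had a higher deposited intensity than vehicle array 2. The EE, EQ, TAM and RAL arrays read 35.7 or less, and RAL array 3 was far below the rest. Its log2 change was -0.76 ± 0.44 in EE, -0.19 ± 0.44 in EB, -0.64 ± 0.44 in EQ, -0.77 ± 0.41 in TAM and -1.64 ± 0.44 in RAL. No change of this probe was called. Without RAL array 3 the RAL change was -0.70.

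Lox codes for lysyl oxidase, the copper enzyme that starts the cross-links of collagen and elastin. Its probe read 54.6, 51.2 and 44.9 in EE rats, 43.0, 51.5 and 55.2 in EB rats and 43.8, 33.9 and 32.8 in EQ rats. It read 46.2, 41.7, 61.3 and 43.8 in TAM rats and 58.3, 56.2 and 49.3 in RAL rats, against 48.7, 39.8, 49.9 and 79.0 in vehicle rats. Every group overlapped vehicle. Its log2 change was -0.57 ± 0.21 in EQ and between -0.13 and 0.06 in the other 4 compounds, and none was called.

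**Figure D2:**
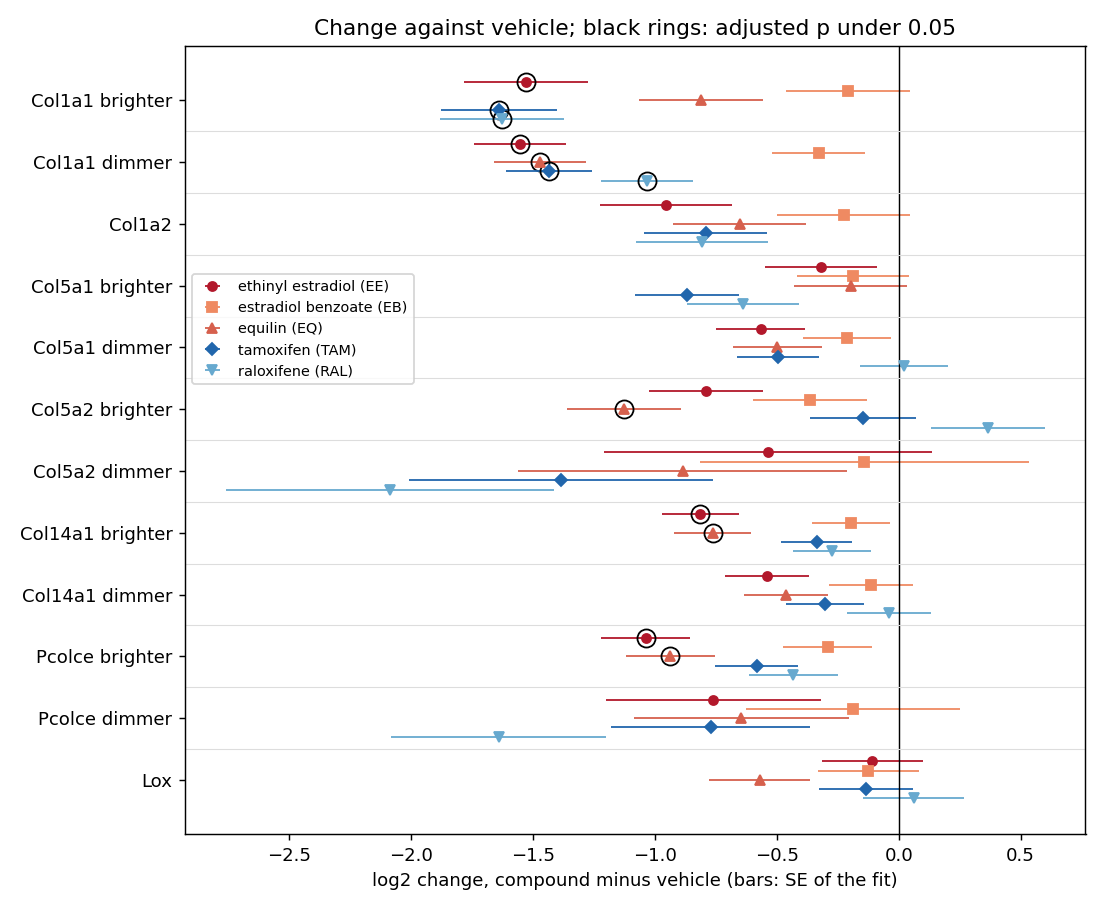
Log2 change against vehicle (horizontal axis) of each of the 12 probes for EE, EB, EQ, TAM and RAL, with bars for the SE of the fit; black rings mark probes called at an adjusted p under 0.05. Both Col1a1 probes are ringed for EE, TAM and RAL, with changes from -1.64 to -1.03, and the EB changes all lie between -0.36 and -0.11.

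Counted over the set, EE and EQ rats had the most probes called lower. In EE rats 4 of the 12 probes were called lower than in vehicle (both Col1a1 probes and the brighter Pcolce and Col14a1 probes), where 0.655% of all tested probes were called lower. The median log2 change of the 12 was -0.77, where that of all tested probes was -0.05. In EQ rats 4 of the 12 were called lower (the dimmer Col1a1 probe and the brighter Col5a2, Pcolce and Col14a1 probes), where 1.96% of all probes were, and the median was -0.71 against -0.17 for all probes. In TAM rats 2 of the 12 were called lower, where 0.191% of all probes were, and the medians were -0.68 for the set and -0.03 for all probes. In RAL rats 2 of the 12 were called lower, where 1.33% of all probes were, and the medians were -0.54 and -0.02. For TAM and for RAL the 2 were the Col1a1 probes. In EB rats 0 of the 12 were called in limma's test, where 0.0651% of all probes were called lower, and the medians were -0.20 and -0.12. At an unadjusted p under 0.05 there were 0 of the 12, where 748 of all probes were higher and 1158 lower. Since these contrasts chose the genes, nothing is read from the counts, and the 5 contrasts share the vehicle arrays.

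Counts of arrays come from the same contrasts that chose the genes, so they too are only a description. All EE arrays lay below all vehicle arrays for 9 of the 12 probes, where 7.68% of all tested probes did so. For EQ the count was also 9 of 12, where 22.5% did so, for TAM 6 of 12 (4.52%), for RAL 5 of 12 (10.9%) and for EB 2 of 12 (10.2%). The fitted change was below 0 for 12 of 12 probes in EE, EB, EQ and TAM and for 9 of 12 in RAL. The median of all probes was below 0 in these 5 contrasts too, from -0.17 in EQ to -0.02 in RAL. The share of all probes below 0 was not counted. Under quantile normalisation only 3 of the 12 EB changes were below 0, with a median of 0.03, so a direction for EB depended on the scaling. That scaling also moved the median of all probes to -0.01 in EQ, against -0.17 with median centring, and left 3 of 12 EQ calls. All-probe calls for EQ then numbered 533 higher and 219 lower, against 444 higher and 482 lower with median centring.

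Both array sets bear on these counts. With the array set as a block, the estrogens were in effect set against vehicle array 1 alone, whose spread was taken to be that of the remaining groups. Among the vehicle arrays the brighter Col1a1 probe read highest on array 1, as did Col1a2 and the brighter Col5a1 and Col14a1 probes. In that fit 2 of 12 probes remained called lower in EE, both Col1a1, where 0.0570% of all probes were. The changes were then -1.89 ± 0.38 for the brighter and -1.38 ± 0.29 for the dimmer Col1a1 probe. For EQ 0 of 12 were called in the blocked limma fit, where 0.0366% of all probes were called lower. The dimmer Col1a1 probe changed there by -1.30 ± 0.29 with an adjusted p of 0.0522. For TAM both Col1a1 probes were called, at -1.52 ± 0.25 and -1.49 ± 0.19, where 0.0733% of all probes were. For RAL only the brighter Col1a1 probe was called, at -1.50 ± 0.27, where 0.0611% were, and the dimmer changed by -1.09 ± 0.21. For EB again 0 of 12 were called, where 0.00814% were.

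**Figure D3:**
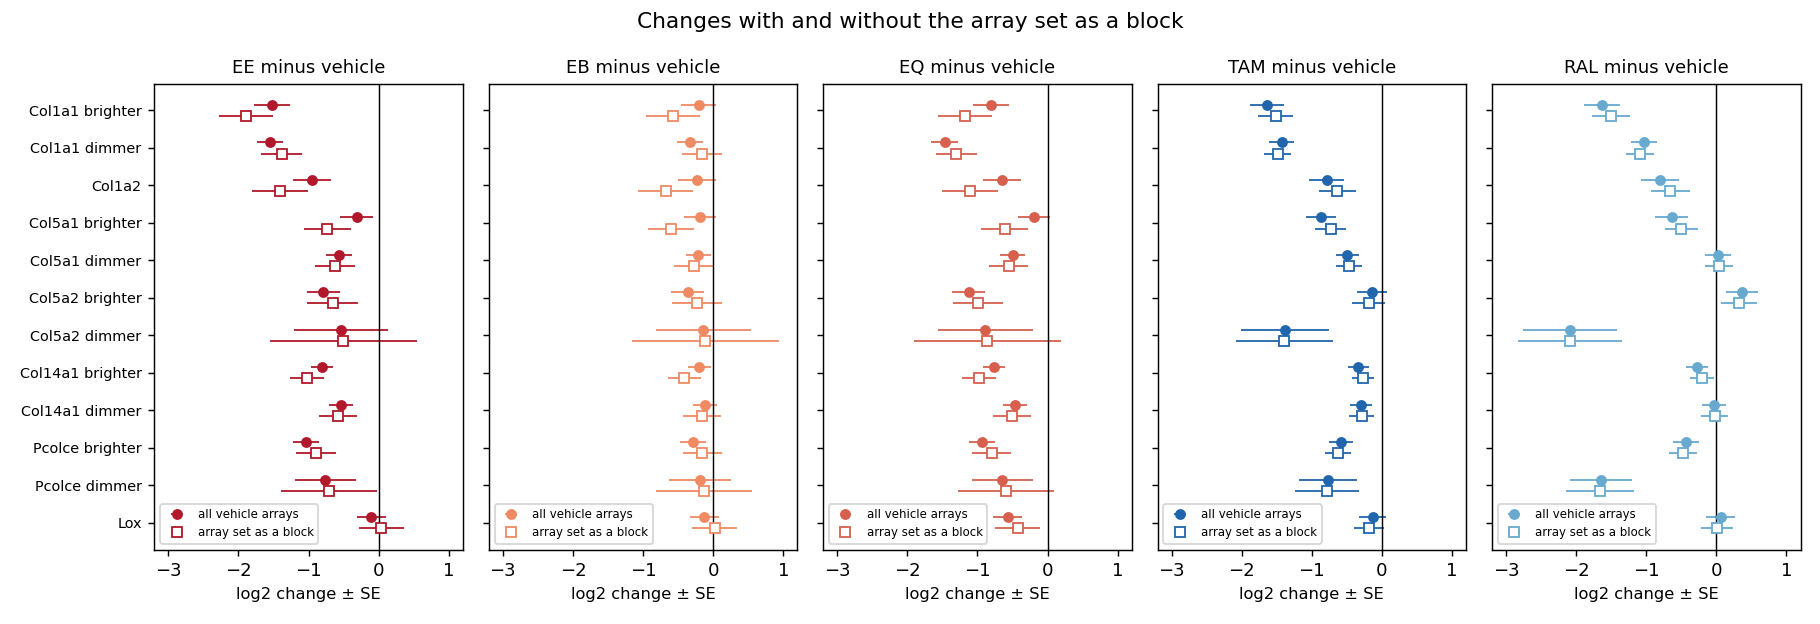
Log2 change against vehicle with its SE (horizontal axis) for the 12 probes in 1 panel per compound, with all vehicle arrays (filled circles) and with the array set as a block (open squares). For TAM the filled and open marks of both Col1a1 probes lie between -1.64 and -1.43; for the estrogens the blocked bars are wider, as in EE where the SE of the brighter Col1a1 probe is 0.38 against 0.26.

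Single arrays decided several calls. Without RAL array 3 the EE count was 9 of 12 and the EQ count 8 of 12, while the RAL count was 0 of 12. Calls among all 24562 probes moved too: in that fit 446 were called lower in EE, 2274 in EQ and 13 in RAL, against 161, 482 and 327 with every array in. The RAL changes of the Col1a1 probes were then -1.37 (brighter) and -1.06 (dimmer), each with an adjusted p of 0.0607 from limma. The RAL count was also 0 without vehicle array 1 and without vehicle array 2, 1 without vehicle array 3 and 5 without RAL array 2, fits in which 4, 6, 18 and 2410 of all probes were called lower. The EE count was 2 without EE array 1, where 50 of all probes were called lower. For EQ the count was 0 without EQ array 2, where 0 of all probes were called lower in limma and 2473 were lower at an unadjusted p under 0.05. It was 1 without vehicle array 3, vehicle array 4 or EQ array 3, where 33, 47 and 10 of all probes were called lower. Both Col1a1 calls in TAM held in all 28 alternatives computed, and each Col1a1 call in EE in 27 of 28.

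The estrogens were given at the same dose, and so were both SERMs, which allowed 4 comparisons between compounds. The arrays compared also entered the contrasts that chose the genes, so these values are not independent of that choice. All EE arrays lay below all EB arrays for 10 of the 12 probes, where 7.25% of all tested probes did so. The dimmer Col1a1 probe differed by -1.22 (95% CI -1.65 to -0.80, limma adjusted p = 0.0122), the 1 call among the 12, where 0.0977% of all probes were called lower in EE. The brighter Col1a1 probe differed by -1.32 with an adjusted p of 0.0504. The call was lost without EE array 1 or 3, or without EB array 1 or 2, where 9, 19, 4 and 6 of all probes were called lower. The difference ran from -1.22 to -1.04 in those fits. Without RAL array 3 there were 3 calls, where 97 of all probes were called lower and 24 with every array in. Without EE array 2 or RAL array 1 there were 2, where 38 and 26 of all probes were called lower. Lox differed by 0.02 (95% CI -0.45 to 0.48).

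EQ against EB had 0 calls among the 12 and among all probes in limma (0.00%), with 326 probes higher and 503 lower at an unadjusted p under 0.05. Even so all EQ arrays lay below all EB arrays for 9 of the 12 probes, where 13.3% of all probes did so. The dimmer Col1a1 probe differed by -1.14 (95% CI -1.57 to -0.72, adjusted p = 0.123). EE against EQ had 0 calls among the 12, where 0.0244% of all probes were called lower in EE. In none of the 12 probes did all EE arrays lie below all EQ arrays, where 4.86% of all probes did so. For Lox all EE arrays lay above all EQ arrays, with a difference of 0.46 (95% CI -0.004 to 0.93, limma adjusted p = 0.526). The share of all probes with EE above EQ in this way was not counted. The brighter Col1a1 probe differed by -0.72 (95% CI -1.29 to -0.14) and the dimmer by -0.08 (95% CI -0.51 to 0.34). At this number of arrays, differences of that size between EE and EQ could not be settled.

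TAM against RAL had 0 calls among the 12, where 0.00% of all probes were called lower in TAM, and 1 of the 12 had all TAM arrays below all RAL arrays, where 3.56% did so. That probe was the dimmer Col5a1, with a difference of -0.52 (95% CI -0.90 to -0.14, adjusted p = 0.371). The brighter Col1a1 probe differed by -0.01 (95% CI -0.55 to 0.52) and Col1a2 by 0.01 (95% CI -0.56 to 0.59).

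**Figure D4:**
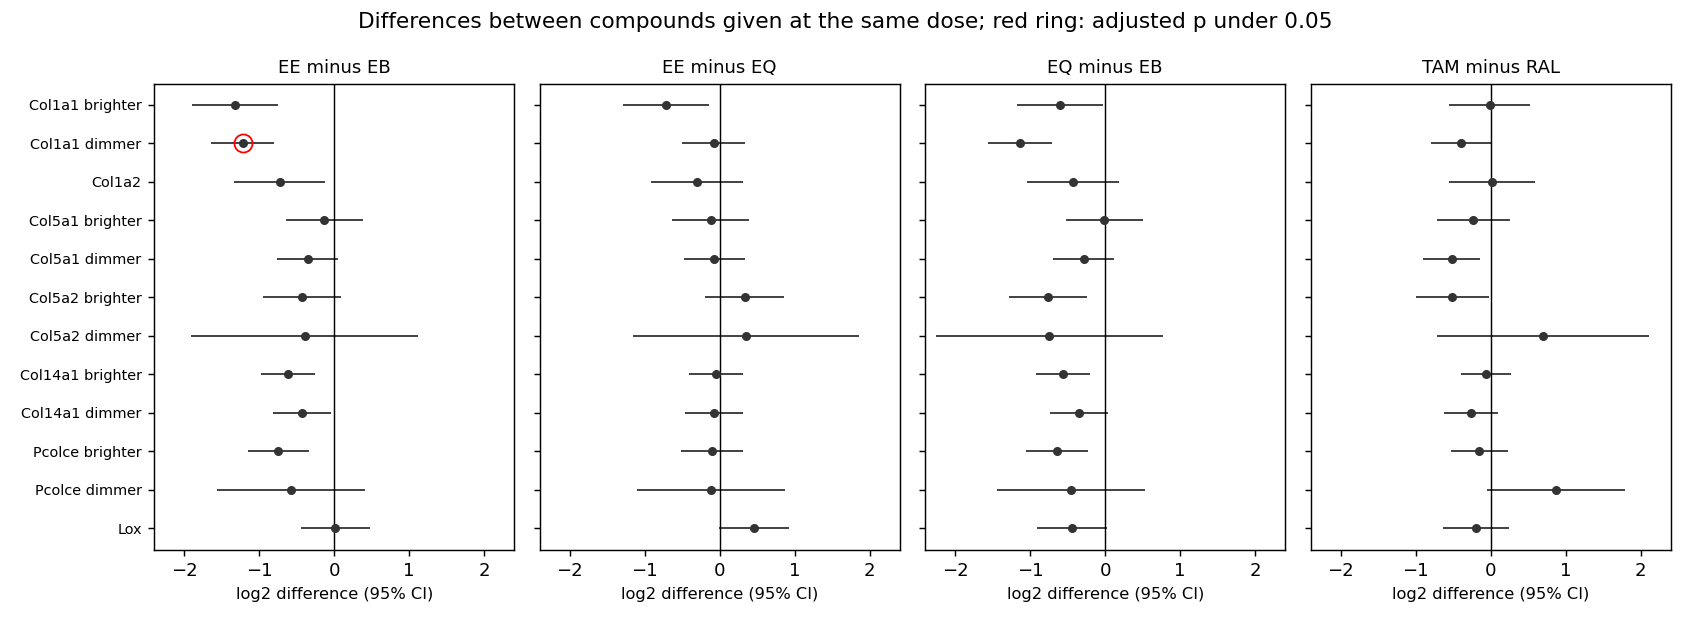
Log2 difference with its 95% CI (horizontal axis) for the 12 probes between compounds given at the same dose, EE minus EB, EE minus EQ, EQ minus EB and TAM minus RAL; a red ring marks an adjusted p under 0.05. The single ring is the dimmer Col1a1 probe in EE minus EB at -1.22.

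Other genes of the pathway were taken from 6 lists by role, 116 genes in all. The lists were made with earlier results of these data known, so their counts are a description. Of these, 78 were tested, through 99 probes. In EE rats 5 of the 99 probes (5.05%) were called lower and 0 higher, in EQ rats 5 (5.05%) lower and 0 higher, in TAM and in RAL rats 3 each (3.03%) lower and 0 higher, and in EB rats 0. With the array set as a block 2 remained in EE and 0 in the other 4. Of all tested probes 0.655% were called lower in EE, 1.96% in EQ, 0.191% in TAM and 1.33% in RAL. Single arrays moved the pathway counts and the counts over all probes together. Without RAL array 3 the pathway counts were 9 for EE, 26 for EQ, 8 for TAM and 0 for RAL, where 446, 2274, 133 and 13 of all probes were called lower. The EE count was 2 or 3 without any 1 of the EE arrays or of vehicle arrays 2 to 4, where 50 to 139 of all probes were called lower. The EQ count was 0 without vehicle array 3 or 4 or EQ array 2 or 3, where 33, 47, 0 and 10 of all probes were called lower. It was 9 without vehicle array 1 and 10 without vehicle array 2, where 850 and 955 were. The TAM count was 0 without vehicle array 1 or 2 or TAM array 1 or 2, and 1 without TAM array 4, where 11 to 22 of all probes were called lower. The RAL count was 0 without vehicle array 1, 2 or 3, where 4, 6 and 18 of all probes were called lower. It was 1 without EQ array 2, 15 without RAL array 1 and 16 without RAL array 2, where 72, 1705 and 2410 were.

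Further collagens, of 20 genes listed and 11 tested, had 0 called probes among 12 in each of the 5 contrasts in limma. At an unadjusted p under 0.05 there were 3 in EE, 1 in EB, 2 in EQ, 2 in TAM and 6 in RAL. Of all 24562 probes, 1321 were higher and 2128 lower at that p in EE, 748 and 1158 in EB and 1507 and 3772 in EQ. In TAM 1005 were higher and 1195 lower, and in RAL 2875 and 3891. The median change of the further collagens ran from -0.26 in EE to 0.05 in RAL. Enzymes and chaperones of procollagen modification, folding and export had 23 probes for 20 genes. Among them Creb3l1, a transcription factor of the endoplasmic reticulum membrane known from mouse bone to drive Col1a1, fell by 0.92 ± 0.16 in TAM (adjusted p = 0.021) and by 0.86 ± 0.18 in RAL (adjusted p = 0.0334). No probe of this list was called in EE, EB or EQ.

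Propeptide removal and cross-linking, the step in which Pcolce and Lox act, had 7 probes for 5 genes. Loxl1, a lysyl oxidase relative that mice need for elastic fibres, fell by 0.96 ± 0.19 in EE (adjusted p = 0.0249). One Bmp1 probe, for the proteinase that Pcolce assists, fell by 1.03 ± 0.23 in RAL (adjusted p = 0.0382), and the other Bmp1 probes read 0.14 and -0.22 there. Median changes of this list were -0.43 in EE, -0.22 in EB, -0.56 in EQ, -0.43 in TAM and -0.50 in RAL.

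Fibril-binding proteins and collagen receptors had 24 probes for 17 genes. Postn, periostin, a matrix protein that binds collagen and aids its cross-linking, fell by 1.27 ± 0.21 in EE (adjusted p = 0.00741), by 1.11 ± 0.20 in TAM (0.0188) and by 1.06 ± 0.21 in RAL (0.0315). One probe of Fn1, fibronectin, on which collagen fibrils are laid down, fell by 1.04 ± 0.18 in EE (adjusted p = 0.0118), by 0.79 ± 0.18 in EQ (0.0247) and by 0.98 ± 0.17 in TAM (0.0188). The other Fn1 probe read -0.01, 0.37 and -0.83 in these 3 contrasts. Itga1, the collagen-binding integrin α1, fell by 1.79 ± 0.44 in EQ (adjusted p = 0.0286).

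Among collagen breakdown enzymes and their inhibitors, with 14 probes for 10 genes, the gelatinase gene Mmp2 had 3 probes. In EE 2 of them fell, by 0.99 ± 0.23 (adjusted p = 0.0447) and 0.88 ± 0.18 (0.0249), and the third read 0.32. In EQ 1 of them fell by 0.70 ± 0.18 (adjusted p = 0.0355), with the others at 0.29 and -0.51. Timp1, an inhibitor of such enzymes, fell by 0.87 ± 0.22 in EQ (adjusted p = 0.0345). TGF-beta ligands, receptors and targets, with 19 probes for 15 genes, had 1 call, Ltbp3, a binding protein that stores latent TGF-beta in the matrix, which fell by 0.94 ± 0.25 in EQ (adjusted p = 0.0436).

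Likeness across the arrays was measured as Pearson's r over the 20 arrays between a probe and the mean standardised profile of the 7 genes, over 13261 probes with a symbol. The genes most alike were Serpinf1 (0.946), Cpz (0.928), Ssc5d (0.910), Cthrc1 (0.892), Penk (0.886), Fn1 (0.882), Chi3l1 (0.879) and Top2a (0.873). Serpinf1 codes for a secreted factor that binds collagen, Cpz for a secreted carboxypeptidase, Cthrc1 for a collagen triple helix repeat protein and Top2a for a topoisomerase of dividing cells. Cpz changed by -1.99 in EE, -0.62 in EB, -1.54 in EQ, -1.48 in TAM and -1.10 in RAL. The other Fn1 probe had an r of -0.08, and the least alike were Cbr1 (-0.869) and Pc (-0.835). The points share treatment groups and array sets, so these r values describe the ranking and no more.

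How far the member probes moved together within groups was read from deviations from group means. The brighter Col1a1 probe and Col1a2 had an r of 0.86 over the 20 arrays, and 0.83 without RAL array 3. Probes of the same gene did less: 0.36 for Col1a1, 0.04 for Pcolce, 0.03 for Col14a1, -0.08 for Col5a1 and -0.10 for Col5a2. Without RAL array 3 these were 0.43, 0.13, 0.24, -0.29 and 0.22. By contrast the brighter Col5a2 and Pcolce probes had an r of 0.74, the dimmer Col5a2 and Pcolce probes one of 0.84 and the brighter Col5a1 probe and Lox one of -0.92. Without RAL array 3 these were 0.79, 0.72 and -0.92. What separates probes of a gene was not tested.

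Markers of cell types were read beside these results, with mean levels over 1 probe a gene. Their counts at an unadjusted p under 0.05 are to be read beside those of all probes, given with the further collagens. Of the 12 fibroblast marker probes 0 were called in any of the 5 contrasts in limma, with 3 at an unadjusted p under 0.05 in EE, 0 in EB, 0 in EQ, 2 in TAM and 3 in RAL. Their mean centred log2 level ran from 3.18 to 3.54 in EE, 3.48 to 3.63 in EB, 3.30 to 3.59 in EQ, 3.40 to 3.78 in TAM and 3.08 to 3.59 in RAL, against 3.40 to 4.02 in vehicle. Over the 12 fibroblast probes the median change was -0.42 in EE, -0.14 in EB, -0.12 in EQ, -0.13 in TAM and -0.38 in RAL. For all tested probes it was -0.05, -0.12, -0.17, -0.03 and -0.02. Of the mast cell markers 3 of 9 probes (Hdc, Mcpt10 and Cpa3) were called lower in EE and in EQ, where 0.655% and 1.96% of all probes were. With the array set as a block none of these calls remained, with adjusted p from 0.10 to 0.598 in EE and from 0.161 to 0.613 in EQ. The mean mast cell level ran from 0.00 to 0.19 in EE and 0.20 to 0.35 in EQ, against 0.80 to 0.89 in vehicle, and from 0.37 to 0.70 in EB, 0.29 to 0.54 in TAM and 0.44 to 0.89 in RAL. In smooth muscle markers Myh11 and Cnn1 were called lower in EQ (1 of 2 probes of each), and Lmod1 higher in EE. The other Cnn1 probe changed by -1.01 in EQ and the other Myh11 probe by 0.03. Of all 24562 probes 1.96% were called lower in EQ, and 134 were called higher in EE. With the array set as a block the Myh11, Cnn1 and Lmod1 calls were lost (adjusted p = 0.855 for Myh11, 0.773 for Cnn1 and 0.288 for Lmod1). The mean smooth muscle level ran from 4.88 to 5.27 in EE, 4.52 to 4.68 in EB, 4.50 to 4.61 in EQ, 3.49 to 4.81 in TAM and 4.97 to 5.02 in RAL, against 4.72 to 5.06 in vehicle, so that all EB arrays as well as all EQ arrays lay below vehicle. In EB 0 of the 8 smooth muscle probes were called in limma and 4 had an unadjusted p under 0.05. At that p there were 1 in EE, 3 in EQ, 2 in TAM and 4 in RAL. Of all 24562 probes 748 were higher and 1158 lower at that p in EB.

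Of the 11 endothelial marker probes 0 were called in any of the 5 contrasts in limma, with 1 at an unadjusted p under 0.05 in EE, 0 in EB, 0 in EQ, 1 in TAM and 4 in RAL. Their mean level ran from 4.37 to 4.58 in EE, 4.10 to 4.75 in EB, 4.45 to 4.52 in EQ, 4.46 to 4.98 in TAM and 4.38 to 4.56 in RAL, against 4.67 to 4.75 in vehicle. All EE, EQ and RAL arrays thus lay below all vehicle arrays in this mean over 1 probe a gene. Over all 11 endothelial probes the median change was -0.009 in EE, -0.149 in EQ and -0.007 in RAL. The macrophage marker Cd163 was called higher in RAL, 1 of 7 probes, where 177 of all 24562 probes were. This call too was lost with the array set as a block (adjusted p = 0.102). The mean macrophage level ran from 4.08 to 4.14 in EE, 4.20 to 4.32 in EB, 4.20 to 4.25 in EQ, 4.45 to 4.75 in TAM and 4.25 to 4.54 in RAL, against 4.31 to 4.81 in vehicle, with all EE and EQ arrays below vehicle. Pancreatic acinar markers varied from -1.55 to 6.01 between arrays with 0 of 7 probes called in limma and 0 at an unadjusted p under 0.05 in the 5 contrasts. The part of these cell types in the collagen values was not tested.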

How the data were processed

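The analysis began from the deposited table of 20 arrays. Its values are linear intensities that the authors had background-subtracted and scaled per array. Per the labels' design text, scanning used a GenePix 4000B with GenePix Pro 5.0, and analysis used CodeLink Expression Analysis, Acuity 3.1 and GeneSpring 7.1. The program that wrote the deposited values was not given in the sources used here. Platform annotation gave 1 symbol to 16865 probes, several to 165 and none to 18099. It holds no genome positions, and 7 symbols were updated.

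Values below 0 were set to 0, and 0.103 (0.1 times the median) was added before log2 and centring on each array's median, which understates changes of dim probes. Left out were 40 probes with over 1 missing value in any group, then the lowest 30% by mean. A model of group means on all 20 arrays was fitted in limma 3.58.1 (R 4.3.3) with a variance trend. Its p-values were Benjamini-Hochberg adjusted over the 24562 probes tested. The scripts were tested on simulated data.

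The member genes, pathway lists and marker lists were chosen with earlier results of these data known. All member probes are named, plus up to 4 called probes of each pathway list per contrast with vehicle, and the 8 genes most like the members' profile. Each of these 8 genes is given by its probe with the highest r. The profile itself took 1 probe a member gene, the brightest tested. Marker lists covered fibroblast, smooth muscle, endothelium, adipocyte, mast cell, macrophage, pancreatic acinar, lymphocyte and mesothelium genes; adipocyte, lymphocyte and mesothelium lists gave 0 called probes in limma in the 5 contrasts with vehicle, with 0 to 2 at an unadjusted p under 0.05 in each, and mean levels that overlapped vehicle. Alternatives were quantile normalisation, no centring, an offset 5 times as large, no filter, only the groups compared, a replicate block, an array set block (split at a deposited median of 1.03) and each array left out. Leaving out 368 regularly spaced unnamed probes that separate the array sets was added after the data were seen.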

Additional observations from a re-analysis of the deposited data

Results flagged for a closer look

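The difference between EE and EB in the dimmer Col1a1 probe was picked out because compounds of the same class and dose differed in a test of the difference itself. It was -1.22 on the log2 scale (95% CI -1.65 to -0.80, limma adjusted p = 0.0122). All 3 EE arrays lay below all 3 EB arrays, as they did for 7.25% of all tested probes. The same arrays entered the contrasts that chose the genes, so this p is not independent of that choice. The brighter Col1a1 probe differed by -1.32 with a limma adjusted p of 0.0504 and was not called. For the dimmer probe the adjusted p ran from 0.00211 under quantile normalisation to 0.132 in a fit of only these groups over the 28 alternatives, and the difference itself from -1.43 to -1.04. No vehicle or TAM value, among 24 groups of 4 arrays examined, stood out from its group by Dixon's criterion.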

How the results depend on the processing

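No member's change reversed among those called. Fitting only the groups compared left 0 called member probes for EE (4 with all arrays), 2 for EQ (4), 0 for RAL (2) and 0 for EE against EB (1). The same fits left 0 pathway probes for EE (5) and 0 for RAL (3). Of all tested probes they called lower 6 in EE, 97 in EQ, 0 in RAL and 0 in EE against EB. The array set block left 2 member probes for EE, 0 for EQ and 1 for RAL, and 2, 0, 0 and 0 pathway probes for EE, EQ, TAM and RAL. The replicate block left 2 pathway probes for EE and 0 for EQ, where 44 and 111 of all probes were called lower. Pathway probes for EQ numbered 1 under quantile normalisation, 3 with no centring, 3 with no filter and 2 without the regularly spaced probes. In those fits 219, 328, 309 and 229 of all probes were called lower in EQ. For EE against EB the members called were 4 under quantile normalisation, 2 with the larger offset and 2 without the regularly spaced probes. In those fits 45, 26 and 27 of all probes were called lower in EE than in EB. For EQ against EB 1 member probe was called under quantile normalisation, where 1 of all probes was called lower. The cause was not tested. Without the regularly spaced probes all-probe calls were 57 higher and 129 lower in EE (134 and 161 with them), 0 and 0 in EB (156 and 16) and 95 and 229 in EQ (444 and 482).

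Leaving out each array in turn gave 2 to 9 member probes for EE, 0 to 8 for EQ, 2 to 3 for TAM, 0 to 5 for RAL and 0 to 3 for EE against EB. Pathway probes ran from 2 to 9 for EE, 0 to 26 for EQ, 0 to 8 for TAM and 0 to 16 for RAL. The highest counts came without RAL array 3 for EE, EQ and TAM pathway probes and without RAL array 2 for RAL. The EB, EE against EQ and TAM against RAL counts stayed at 0 in every alternative.

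Replicate numbers did not pair the arrays: over 46 pairs of the same number in different groups, deviations from group means correlated with a median of 0.02 (-0.43 to 0.29), and over 120 pairs of other numbers with a median of -0.00. With the replicate number as a block 3 member probes were called for EE, 4 for EQ, 2 for TAM, 2 for RAL, 0 for EB and 1 for EE against EB. Of all probes 44, 111, 36, 214, 0 and 17 were called lower there. Groups of 3 or 4 arrays limit what could be called, and 12 probes limit what can be said of 7 genes.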
